A study of Homo sapiens with 6 samples.

Results

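A set of 10 genes that encode inflammatory outputs was followed in HEYA8 (an established line of human ovarian cancer, labelled low grade serous) after knockdown of the transcription factor ETS1. They were the colony-stimulating factors CSF1, CSF2 and CSF3, the chemokines CCL2 and CCL20, the adhesion molecules ICAM1 and VCAM1, the cytokines IL32 and TNF, and the prostaglandin synthase PTGS2. The 10 genes were selected on their names, as rows of the authors' table, with the change between the groups already known from these data, so their values below are a description and no new test was made on them. All 10 were found among the 20061 rows, and the authors had tested 7 of them. The shETS1 group carried a lentiviral short hairpin RNA (shRNA) against ETS1 (3 samples), and the shLuciferase group one against luciferase, a gene human cells lack (3 samples). Both groups expressed their hairpin stably, grew under puromycin and received no further treatment. The labels name neither the hairpin sequences nor their number, and do not say whether the samples were separate cultures.

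Polyadenylated RNA was sequenced, and the table holds 1 FPKM value (a fragment count scaled to transcript length and library size) per gene and group, so no spread between samples and no depth can be given. A gene is called changed where the q-value in the authors' deposited table is at most 0.05. Of 11952 tested rows, 65 were called higher in shETS1 (0.544%) and 32 lower (0.268%). ETS1 itself was at 17.9 FPKM in shETS1, against 41.4 FPKM in shLuciferase, at q = 0.00964 (the authors' deposited table). In bulk RNA, fewer cells of a kind and less RNA per cell cannot be told apart.

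These genes are outputs of the same alarm programme. Receptors for interleukin 1, TNF and bacterial products activate NF-kappaB and AP-1, which bind the promoters of many of the genes, and ETS factors bind some of the same promoters. The products call in and feed myeloid cells: the colony-stimulating factors drive growth of macrophages and granulocytes, chemokines attract leukocytes, ICAM1 and VCAM1 hold them, and PTGS2 starts prostaglandin synthesis. Many of the transcripts are also short-lived, because AU-rich elements in their 3' ends recruit decay proteins such as ZFP36.

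The promoter windows of 5 members are shown because they set the genes whose level was higher in shETS1 beside genes whose level was not. Each window runs from 250 bases before to 50 bases after a RefSeq transcription start (GRCh38.p14, plus strand, 5′ to 3′). Capitals mark a match to the 10-letter kappaB consensus or to the looser pattern GGNNNTTCC, on either strand; the matches of both often overlap. RefSeq windows were found for 7 of the 10 members, ICAM1, IL32 (2 starts), CSF2, CCL20, TNF, VCAM1 and PTGS2. CSF1, CSF3 and CCL2 had no entry. The windows lie at chr19:10270870-10271169 for ICAM1, chr16:3065153-3065452 for the first start of IL32, chr5:132073539-132073838 for CSF2, chr2:227813592-227813891 for CCL20 and chr6:31575315-31575614 for TNF.
ICAM1: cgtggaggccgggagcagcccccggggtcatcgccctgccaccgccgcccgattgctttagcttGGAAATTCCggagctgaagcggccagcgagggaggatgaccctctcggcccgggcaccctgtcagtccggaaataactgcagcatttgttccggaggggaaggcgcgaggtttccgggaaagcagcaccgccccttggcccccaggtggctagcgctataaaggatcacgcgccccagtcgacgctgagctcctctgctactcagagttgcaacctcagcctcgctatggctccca
IL32: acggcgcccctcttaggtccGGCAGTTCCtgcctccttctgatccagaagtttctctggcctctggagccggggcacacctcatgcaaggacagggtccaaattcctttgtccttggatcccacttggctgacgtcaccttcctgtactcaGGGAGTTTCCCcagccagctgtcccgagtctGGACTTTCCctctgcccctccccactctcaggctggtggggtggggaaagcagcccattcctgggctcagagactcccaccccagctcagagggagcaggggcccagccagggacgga
CSF2: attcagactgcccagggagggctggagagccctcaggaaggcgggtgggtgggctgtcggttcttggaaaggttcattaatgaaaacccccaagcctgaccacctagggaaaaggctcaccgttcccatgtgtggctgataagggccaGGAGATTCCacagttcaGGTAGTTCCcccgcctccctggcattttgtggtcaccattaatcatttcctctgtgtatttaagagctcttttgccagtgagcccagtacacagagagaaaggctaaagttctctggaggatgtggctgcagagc
CCL20: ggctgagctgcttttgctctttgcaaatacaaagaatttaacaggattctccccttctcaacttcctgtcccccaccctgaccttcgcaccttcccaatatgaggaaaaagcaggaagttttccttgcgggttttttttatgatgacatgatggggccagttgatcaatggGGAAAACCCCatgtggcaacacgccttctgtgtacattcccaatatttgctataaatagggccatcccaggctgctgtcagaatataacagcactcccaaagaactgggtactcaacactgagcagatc
TNF: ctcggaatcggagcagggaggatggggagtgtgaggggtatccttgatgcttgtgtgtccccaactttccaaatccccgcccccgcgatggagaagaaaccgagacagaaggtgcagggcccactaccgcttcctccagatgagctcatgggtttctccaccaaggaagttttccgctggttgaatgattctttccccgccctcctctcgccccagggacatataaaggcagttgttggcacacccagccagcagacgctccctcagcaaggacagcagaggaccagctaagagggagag

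Matches to the kappaB consensus were found in 3 of the 7 members with a window, CCL20, IL32 and VCAM1 (3 of their 8 windows). They were found in 11.3% of all 35114 RefSeq windows and in 13.4% of the windows of tested genes. In IL32 a pair of overlapping matches began at -99 and -98 from the first start, in CCL20 one began at -79, and in VCAM1 the site GGGATTTCCC began at -62. The pattern GGNNNTTCC was added with known sites of these genes in mind, so its count is not independent of them. It was found in 5 of the 7, ICAM1 (GGAAATTCC at -186), CSF2, IL32, CCL20 and VCAM1. Its share was 20.1% of all windows and 22.9% of the windows of tested genes. Neither pattern was found in the windows of TNF or PTGS2, or in the window of the second start of IL32. Only exact matches were counted, so a kappaB site that differs from both patterns in any letter is missed.

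The ETS core was counted in 2 forms on both strands. CGGAA was found in ICAM1, TNF and PTGS2 (3 of 7 members), against 34.9% of all windows and 49.7% of the windows of tested genes. ICAM1 held 4 matches, the first of which overlaps its GGNNNTTCC site. AGGAA was found in the other 4 and again in TNF and PTGS2 (6 of 7 members), against 63.1% of all windows and 58.0% of the windows of tested genes. The AP-1 pattern TGANTCA was in none of the 7, in 7.71% of all windows and in 5.26% of the windows of tested genes. Both the called members ICAM1 and IL32 and the uncalled CSF2 and CCL20 held the looser pattern and a form of the ETS core.

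**Figure D1:**
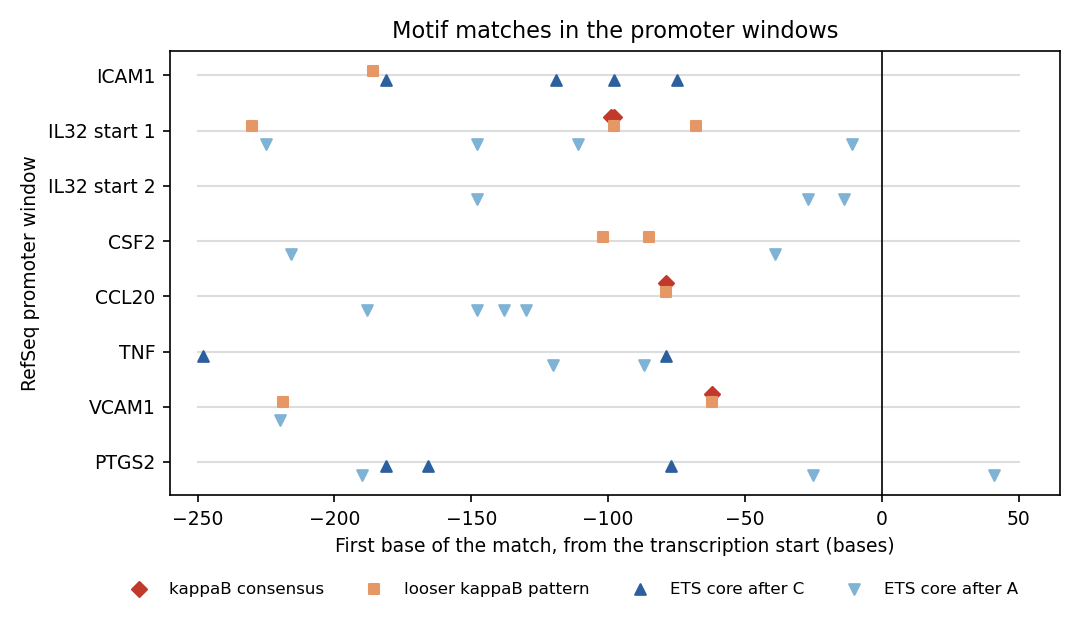
First base of each motif match (horizontal axis, bases from the transcription start) in the 8 RefSeq promoter windows of 7 members (rows), on either strand. Diamonds are the kappaB consensus, squares the looser pattern, and triangles the ETS core after C (pointing up) or after A (pointing down). ICAM1 holds 4 matches of the ETS core after C and IL32 has a pair of overlapping consensus matches near -99.

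Among the colony-stimulating factors, CSF3 rose, CSF2 had the largest ratio without a call, and CSF1 was not called at a ratio of 1.11. CSF3 encodes G-CSF, the growth factor of neutrophils, and lies on chromosome 17 (38171614 to 38174066, hg19). It was at 25.2 FPKM in shETS1 and 12.8 FPKM in shLuciferase, 1.96-fold higher, at q = 0.00964 (the authors' deposited table). CSF2 encodes GM-CSF, which supports granulocytes, macrophages and dendritic cells (chromosome 5, 131409485 to 131411859). It was at 1.39 FPKM in shETS1 and 0.276 FPKM in shLuciferase.

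The ratio for CSF2 was 5.04-fold, a log2 value of 2.33, but the authors' deposited table gives p = 0.0022 and q = 0.141. The largest p-value of any called row was 0.0004. Among 1159 tested rows with a mean level within 1.5-fold of that of CSF2, 13 were called, the smallest of them at 2.22-fold. CSF2 was thus not called at a ratio above the smallest called ratio at its level. Adding 1 FPKM to both levels brought the log2 ratio of CSF2 to 0.91. CSF1 encodes M-CSF, the survival factor of macrophages (chromosome 1, 110453233 to 110473616). It was at 12.0 FPKM in shETS1 and 10.8 FPKM in shLuciferase, at q = 1.00 (the authors' deposited table).

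On the FPKM scale, which is per transcript length, the 3 factors summed to 38.5 FPKM in shETS1 and 23.9 FPKM in shLuciferase. CSF3 made up 65.3% of that sum in shETS1 and 53.7% in shLuciferase, and CSF1 31.1% in shETS1 and 45.1% in shLuciferase. CSF2 stayed a minor part, 3.61% in shETS1 and 1.16% in shLuciferase.

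**Figure D2:**
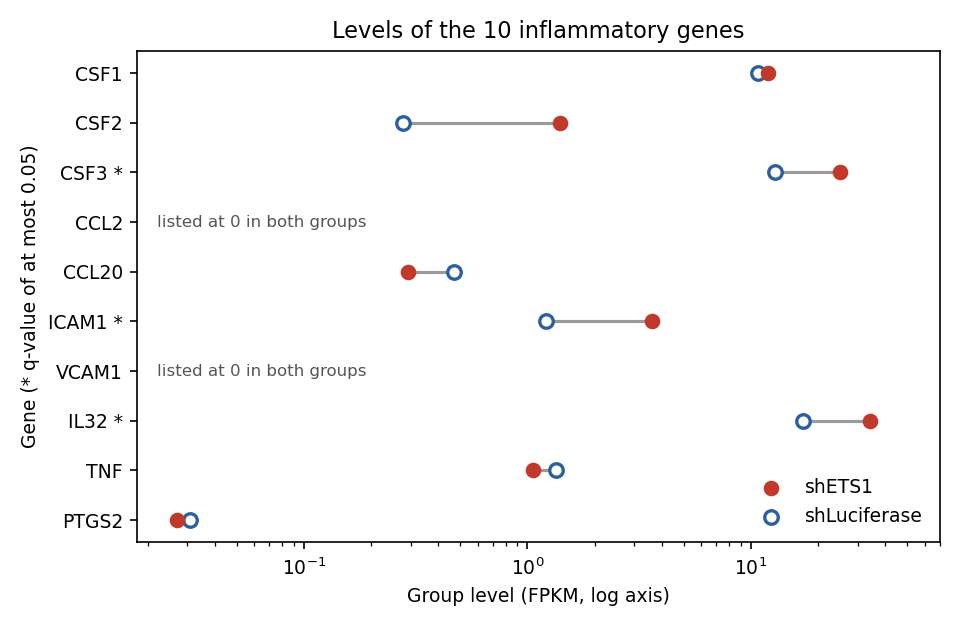
Level of each of the 10 genes (FPKM, horizontal log axis) in shETS1 (filled red) and shLuciferase (open blue), 1 deposited value per group, joined by a grey line; asterisks mark a q-value of at most 0.05. CSF3, ICAM1 and IL32 carry the asterisk, CSF2 has the longest line (1.39 against 0.276 FPKM), and CCL2 and VCAM1 are listed at 0.

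Neither chemokine was called. CCL20, which draws CCR6-bearing dendritic cells and lymphocytes, was at 0.291 FPKM in shETS1 and 0.468 FPKM in shLuciferase, a log2 ratio of -0.69, at q = 1.00 (the authors' deposited table). Of 491 tested rows at a similar level, 111 had a ratio at least that far from 1. CCL2, the main monocyte attractant, was listed at 0 in both groups and had not been tested. An exact 0 in this table can be a failed estimate, since GAPDH, used by every cell, was also listed at 0 under a mark for too much data, while CCL2 carried the mark for a row not tested.

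ICAM1 rose and had the largest called ratio of the 10 genes, whereas VCAM1 was listed at 0 in both groups and was not tested. ICAM1 encodes the receptor that leukocytes grip through the integrins LFA-1 and Mac-1, and VCAM1 the one for integrin alpha-4 beta-1. ICAM1 (chromosome 19, 10381517 to 10397291, hg19) was at 3.61 FPKM in shETS1 and 1.21 FPKM in shLuciferase. The ratio was 2.99-fold, a log2 value of 1.58, at q = 0.00964 (the authors' deposited table). Of 10481 tested rows with at least 1 FPKM in both groups, it ranked 7 by ratio.

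The level of ICAM1 stayed modest in both groups, and the log2 ratio was 1.06 with 1 FPKM added to both levels and 0.47 with 5 FPKM. Of 9 tested rows within 100 kb, among them its relatives ICAM3 and ICAM5, none was called, where 0.544% of all tested rows were called higher and 0.268% lower, so a count of 0 is near the background. Their log2 ratios ran between -0.41 and 0.84. The top of that range was ICAM5, the nearest tested row, at 0.721 FPKM in shETS1 and 0.402 FPKM in shLuciferase, 1.79-fold. For ICAM5 the authors' deposited table gives p = 0.0234 and q = 0.529. GENCODE 29 places the antisense genes AC011511.2 and AC011511.5 over ICAM1, and since no step that marks strand is described, their reads could not be separated from those of ICAM1.

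IL32 rose and was the most abundant of the 10 genes in both groups. It encodes a cytokine of human cells that induces TNF and other cytokines in myeloid cells (chromosome 16, 3115313 to 3119668, hg19). IL32 was at 34.0 FPKM in shETS1 and 17.1 FPKM in shLuciferase, 1.99-fold higher, at q = 0.0178 (the authors' deposited table). None of 9 tested rows within 100 kb was called, a count near the background of 0.544% of all tested rows higher and 0.268% lower. Their log2 ratios ran between -0.45 and 0.35. GENCODE 29 has the lincRNA AC108134.3 on the opposite strand and the small nuclear RNA pseudogene RNU1-125P over the same gene.

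TNF, the best-known activator of this programme, was not called and its level was not higher. It was at 1.06 FPKM in shETS1 and 1.35 FPKM in shLuciferase, a log2 ratio of -0.34, at q = 1.00 (the authors' deposited table). Its row lies on an alternative haplotype contig of chromosome 6 (ssto_hap7, 2874151 to 2876913), and reads of near-identical copies elsewhere could have been split from it. The 12 tested rows within 100 kb on that contig had log2 ratios between -0.49 and 0.39. None was called, a count near the background of 0.544% of all tested rows higher and 0.268% lower. PTGS2, which encodes cyclooxygenase-2, was barely listed, at 0.0270 FPKM in shETS1 and 0.0308 FPKM in shLuciferase, and was not tested.

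In all, 3 of the 7 tested members were called higher (CSF3, ICAM1 and IL32) and none lower, where 0.544% and 0.268% of all tested rows were called in those directions. These counts come from the contrast that was known when the genes were chosen, so nothing is read from the difference. The median log2 ratio of the 7 was 0.97, against 0.02 over all 11952 tested rows, and 5 of the 7 were above 0. At an unadjusted p-value under 0.05, CSF2 joined the 3, with 3.9% of tested rows then higher and 3.04% lower, and no member was lower. A q-value of 0.1 (0.845% of rows higher, 0.41% lower) left CSF2 uncalled, and one of 0.01 (0.335% higher, 0.184% lower) kept CSF3 and ICAM1 but not IL32.

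Adjusting p-values anew over rows with a mean of at least 1 FPKM called CSF3, ICAM1 and IL32 (0.534% of 10676 rows higher, 0.234% lower). Over rows with at least 5 FPKM, where ICAM1 is no longer included, CSF3 and IL32 were called (0.396% of 7330 rows higher, 0.177% lower).

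**Figure D3:**
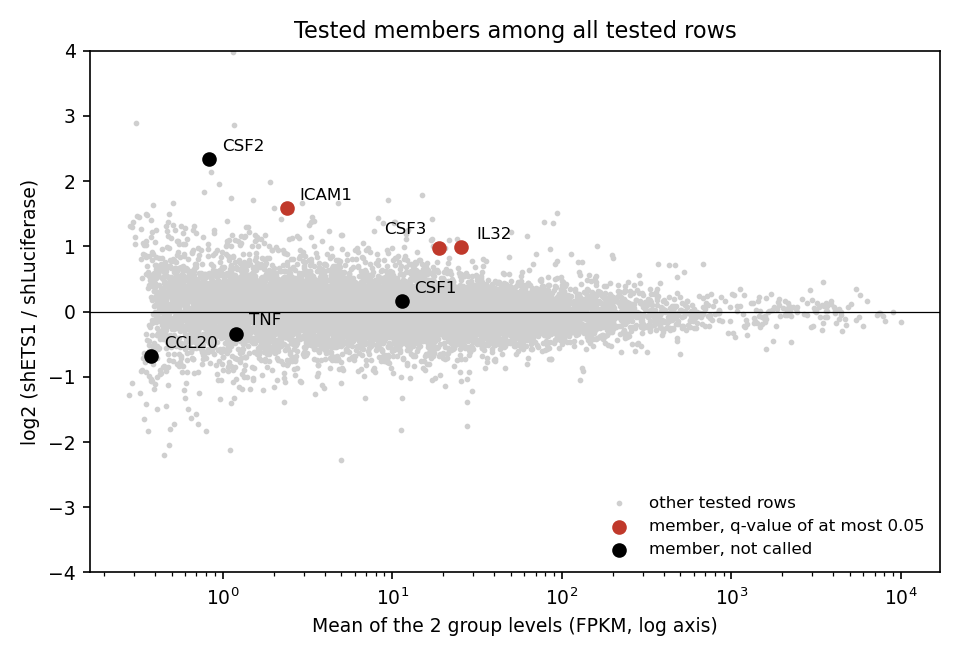
Log2 ratio of shETS1 over shLuciferase (vertical axis) against the mean of the 2 group levels (FPKM, horizontal log axis) for each tested row; 3 rows with no finite ratio or beyond the axis are not drawn. Red points are the called members ICAM1, CSF3 and IL32, black points the 4 tested members not called, and grey points all other tested rows. CSF2 stands highest of the members at 2.33, at a level below 1 FPKM.

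By size of change, the called members had close company among 75 called rows with at least 1 FPKM in both groups. Likeness here is the difference in log2 ratio over the 2 group values alone. Nearest to ICAM1 were OXTR, the oxytocin receptor (3.03 FPKM in shETS1, 1.01 FPKM in shLuciferase), and COL1A1, a chain of collagen I (3.75 FPKM in shETS1, 1.29 FPKM in shLuciferase), which differed by 0.01 and 0.04. Nearest to CSF3 were the chemokine CXCL3 and the serpin SERPINB7, and nearest to IL32 were LOXL1, a collagen cross-linking enzyme, and the chemokine CXCL1, each 0.01 or less away after rounding to 2 decimals.

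The AU-rich elements of the transcripts were counted because they mark short-lived messages. They were read from the GENCODE 29 transcript with the longest coding sequence. The nonamer TTATTTATT was found in the 3' untranslated regions of CSF2 (3 times), TNF (5 times) and PTGS2 (once), against 8.10% of 10631 genes with a tested row. The first such site of each is shown, with the nonamers that lie wholly within the shown stretch in capitals.
CSF2: tttaaaatatTTATTTATTTATTTATTta
TNF: gcacttgtgaTTATTTATTATTTATTtat
PTGS2: atgatcatatTTATTTATTtatatgaacc

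Pentamers of ATTTA were densest in CSF2, with 8 in 318 bases (25.2 per kb), against a median of 1.54 and a 90th percentile of 4.94 over those genes. CSF3 had 7 in 854 bases and no nonamer, CCL20 had 3 in 451 bases, and ICAM1 had 2 in 1328 bases, a density of 1.51. IL32 had none in 196 bases. The called members thus ran from no pentamer (IL32) to a dense stretch (CSF3). Of the 3 genes with a nonamer 1 had a higher level in shETS1 without a call, 1 was not higher and 1 was not tested. Nonamers were held by 861 of the 10631 tested rows with a 3' untranslated region. Of the 861, 11 were called higher and 2 lower, with a median log2 ratio of 0.08. Over all 11952 tested rows, a wider set, 65 were called higher (0.544%) and 32 lower (0.268%), with a median of 0.02. A link between nonamers and level was not tested.

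**Figure D4:**
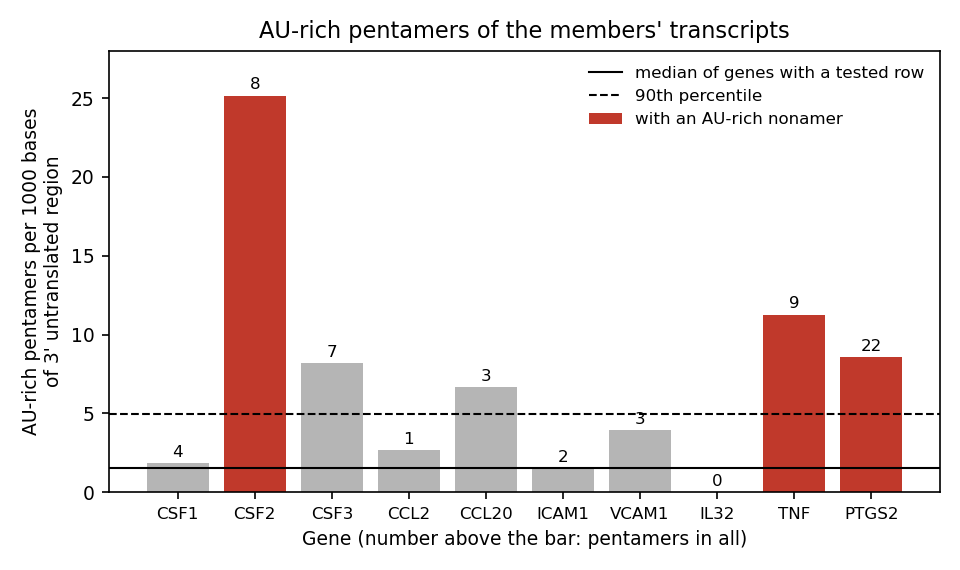
Pentamers of the AU-rich element per kb of 3' untranslated region (bars, vertical axis) for the 10 genes, with their number above each bar; red bars are genes with an AU-rich nonamer. The solid line is the median (1.54) and the dashed line the 90th percentile (4.94) of genes with a tested row. CSF2 stands at 25.2 and IL32 at 0.

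The receptors of these products were mostly too low to be tested. Of 18 receptors and counter-receptors on the list, 4 were tested and none was called, where 0.544% of all tested rows were called higher and 0.268% lower. A count of 0 on this list, or on the pathway lists below, is near that background. TNFRSF1A, the main TNF receptor, was at 146 FPKM in shETS1 and 152 FPKM in shLuciferase. ITGB1, the beta chain that pairs with the alpha-4 integrin, was at 153 FPKM in shETS1 and 100.4 FPKM in shLuciferase, where the authors' deposited table gives p = 0.0146 and q = 0.424. The 14 untested ones reached at most 0.254 FPKM in shETS1 and 0.244 FPKM in shLuciferase, and CSF3R, CSF2RB and CCR2 were listed at 0. CSF2RA was listed at 0 too, at a pseudoautosomal locus where SLC25A6, an abundant mitochondrial carrier, was also listed at 0.

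Other ligands of the same families showed no call, which is near the background. Of 10 other haematopoietic growth factors 5 were tested, the most abundant being FLT3LG (6.52 FPKM in shETS1, 8.72 FPKM in shLuciferase) and LIF (5.41 FPKM in shETS1, 5.78 FPKM in shLuciferase). Their median log2 ratio was -0.09. Of 27 other CC, CX3C and XC chemokines only CCL5 was tested, at 0.537 FPKM in shETS1 and 0.402 FPKM in shLuciferase, and 17 were listed at 0 in both groups. Of 17 other TNF superfamily ligands 5 were tested, with a median of -0.23. CD70, the ligand of CD27, was at 77.9 FPKM in shETS1 and 49.9 FPKM in shLuciferase, and TNFSF9, the ligand of 4-1BB, at 23.0 FPKM in shETS1 and 13.6 FPKM in shLuciferase. The authors' deposited table gives q = 0.275 for CD70 and q = 0.142 for TNFSF9.

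Adhesion molecules other than ICAM1 were not called either, which is near the background and does not set ICAM1 apart from them. Among 17 of them 10 were tested, with a median log2 ratio of -0.07. ALCAM, a ligand of CD6, was at 60.0 FPKM in shETS1 and 46.4 FPKM in shLuciferase, and ICAM2, another ligand of LFA-1, at 32.0 FPKM in shETS1 and 37.8 FPKM in shLuciferase. SELE, the endothelial selectin, was listed at 0 in both groups.

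In the signalling chain below TNF, 2 of 23 tested genes rose and none fell, where 0.544% of all tested rows were called higher and 0.268% lower. BIRC3, a ubiquitin ligase of the TNF receptor complex, was at 4.45 FPKM in shETS1 and 1.40 FPKM in shLuciferase, at q = 0.00964 (the authors' deposited table). TRAF1, an adaptor of the same complex, was at 0.973 FPKM in shETS1 and 0.391 FPKM in shLuciferase, at q = 0.0306 (the authors' deposited table). Both are themselves known NF-kappaB targets. So is TNFAIP3 on the same list, which was at 1.70 FPKM in shETS1 and 1.82 FPKM in shLuciferase and was not called. Whether NF-kappaB had a part in these levels was not tested. The median over the 23 was 0.06, and the abundant member SHARPIN was at 62.2 FPKM in shETS1 and 64.1 FPKM in shLuciferase.

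None of 10 NF-kappaB subunits and inhibitors was called, with 8 log2 ratios above 0 and a median of 0.20. RELA was at 52.4 FPKM in shETS1 and 64.2 FPKM in shLuciferase, and NFKBIB at 41.6 FPKM in shETS1 and 40.7 FPKM in shLuciferase. NFKB1 was at 17.6 FPKM in shETS1 and 18.6 FPKM in shLuciferase, and NFKBIE at 16.5 FPKM in shETS1 and 15.4 FPKM in shLuciferase. Of the 10, 4 had higher levels in shETS1 at an unadjusted p-value under 0.05, where 3.9% of all tested rows did. RELB, the partner of NFKB2 in the alternative pathway, was at 26.8 FPKM in shETS1 and 15.9 FPKM in shLuciferase, 1.68-fold (p = 0.0017 and q = 0.122 in the authors' deposited table). NFKBIA, the inhibitor that NF-kappaB itself induces, was at 37.9 FPKM in shETS1 and 23.7 FPKM in shLuciferase, a log2 ratio of 0.68 (p = 0.00425 and q = 0.202 in the authors' deposited table). BCL3 was 1.55-fold and NFKB2 1.44-fold, with q = 0.533 and q = 0.529 in the authors' deposited table.

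Of 20 genes of AU-rich messenger decay all were tested and none was called, with a median of 0.05. HNRNPD was at 215 FPKM in shETS1 and 184 FPKM in shLuciferase, and ZFP36L1 at 78.6 FPKM in shETS1 and 86.2 FPKM in shLuciferase. ZFP36 was at 4.09 FPKM in shETS1 and 5.92 FPKM in shLuciferase (p = 0.053 and q = 0.743 in the authors' deposited table). Its relative ZFP36L2 was at 8.59 FPKM in shETS1 and 5.96 FPKM in shLuciferase, and 11 of the 20 log2 ratios were above 0. Of 20 prostaglandin genes 7 were tested and none was called, with a median of 0.03. PTGES3 was at 208 FPKM in shETS1 and 181 FPKM in shLuciferase, and PTGES2 at 158 FPKM in shETS1 and 171 FPKM in shLuciferase.

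**Figure D5:**
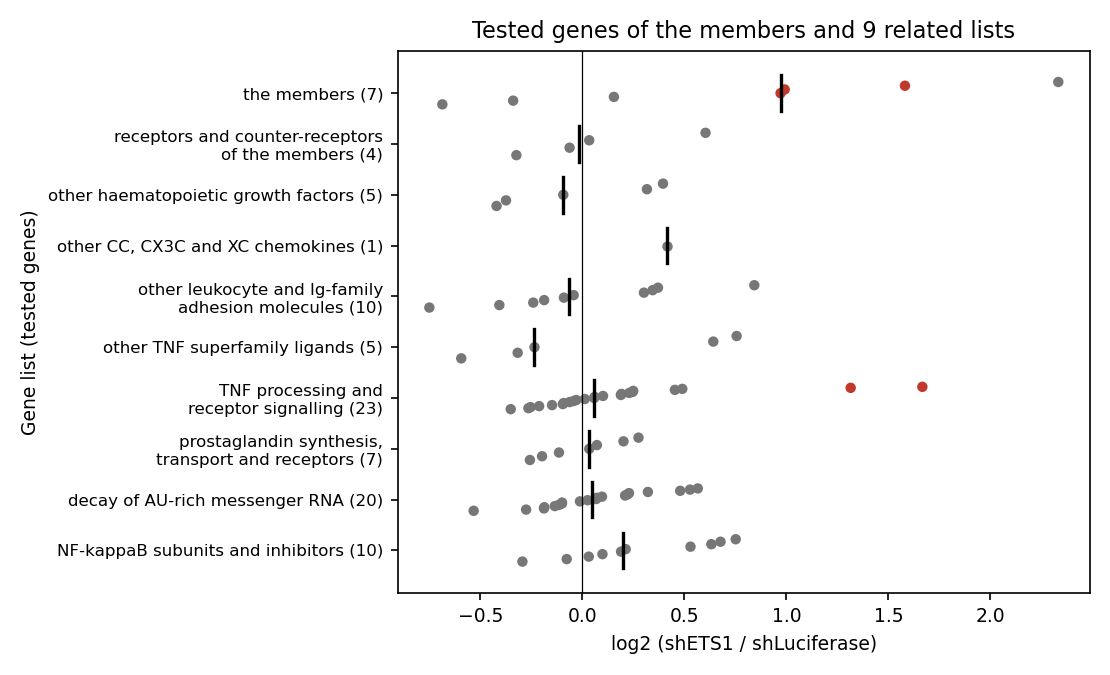
Log2 ratio of shETS1 over shLuciferase (horizontal axis) of each tested gene of the members and of 9 related lists (rows, number of tested genes in parentheses); red points are called higher, grey points are not called, and black ticks are medians. Calls lie on the members (CSF3, ICAM1 and IL32) and on the TNF signalling list (BIRC3 and TRAF1).

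Leukocytes make several of these products, and their markers were listed at low or 0 levels. The defining markers PTPRC, TYROBP and CD3E were listed at 0 in shETS1 and in shLuciferase, which in this table need not mean absence. Of 10 markers 3 were tested, with no call, and the 10 summed to 2.86 FPKM in shETS1 and 4.36 FPKM in shLuciferase. The most abundant were LAPTM5 (1.36 FPKM in shETS1, 2.82 FPKM in shLuciferase, with p = 0.0009 and q = 0.0827 in the authors' deposited table), LYZ (0.781 FPKM in shETS1, 0.672 FPKM in shLuciferase) and CD14 (0.525 FPKM in shETS1, 0.688 FPKM in shLuciferase). In shLuciferase the level of LAPTM5 was above those of ICAM1, TNF and CSF2. Of 7 endothelial markers 2 were tested and 1 was called: CDH5 fell to 5.00 FPKM in shETS1, against 17.6 FPKM in shLuciferase. The 7 summed to 127 FPKM in shETS1 and 183 FPKM in shLuciferase, nearly all of it TIE1 (122 FPKM in shETS1, 164 FPKM in shLuciferase), which was not called (q = 0.852 in the authors' deposited table). CLDN5 was at 0.271 FPKM in shETS1 and 0.295 FPKM in shLuciferase, VWF at 0.153 FPKM in shETS1 and 0.238 FPKM in shLuciferase, and KDR at 0.108 FPKM in shETS1 and 0.0710 FPKM in shLuciferase.

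Of 8 fibroblast markers 2 were tested. COL1A1 rose, and FAP, which was not called, was at 6.31 FPKM in shETS1 and 4.60 FPKM in shLuciferase. The untested PDGFRB was at 0.116 FPKM in shETS1 and 0.0904 FPKM in shLuciferase, and LUM at 0.0178 FPKM in shETS1 and 0.0123 FPKM in shLuciferase. COL1A2 was lower, at 0.00934 FPKM in shETS1 and 0.0201 FPKM in shLuciferase. THY1 was lower too, at 0.0155 FPKM in shETS1 and 0.0185 FPKM in shLuciferase. DCN and COL3A1 were listed at 0. The sum was 10.2 FPKM in shETS1 and 6.03 FPKM in shLuciferase, nearly all of it COL1A1 and FAP. The part of these markers in the levels of ICAM1, CSF3 and IL32 was not tested. The cells carried the carcinoma markers KRT18 (1498 FPKM in shETS1, 2044 FPKM in shLuciferase), KRT8 (1288 FPKM in shETS1, 1913 FPKM in shLuciferase) and PAX8 (76.8 FPKM in shETS1, 79.7 FPKM in shLuciferase), none of them called. SOX17, a transcription factor on the same list, was at 2.38 FPKM in shETS1 and 1.15 FPKM in shLuciferase, 2.07-fold (p = 0.00145 and q = 0.110 in the authors' deposited table). EPCAM was low, at 1.82 FPKM in shETS1 and 1.71 FPKM in shLuciferase, as was WT1, at 3.13 FPKM in shETS1 and 3.58 FPKM in shLuciferase, and MUC16 was at 0 FPKM in shETS1 and 0.000625 FPKM in shLuciferase.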

How the data were processed

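RNA-seq of 6 HEYA8 samples was used (3 shETS1, 3 shLuciferase). The submitters' processing notes name hg19 and, with no role or order, Cufflinks 2.1.1, SAMtools 0.1.18, TopHat2 2.0.7 and Bowtie2 2.0.6. Which annotation and settings were used is not given in the sources used here. The authors deposited 1 FPKM value per gene and group, with p-values and q-values of their comparison, per the file headers. No measurement per sample was used, so the p-values of the authors were not recomputed, and the planned limma fit could not be made.

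Gene starts, 0-based as deposited, are given 1-based. Log2 ratios were computed from the group levels (Python 3.11.15, pandas 2.3.3), with no pseudocount. A Benjamini-Hochberg adjustment of all tested rows returned the deposited q-values within 5.16e-07; that adjustment and the GC trend were tested on simulated data. The members and the 9 pathway and 4 marker lists were chosen with earlier results of these data known. Named genes are the members, ETS1, called genes and the 2 most abundant tested genes of each pathway list, the 3 most abundant markers, and the 2 called genes nearest to each called member; other names were chosen after their values were seen. Promoter windows came from RefSeq (GRCh38.p14), transcripts from GENCODE 29 by symbol.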

Additional observations from a re-analysis of the deposited data

How the results depend on the processing

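Over 7 alternatives (0.1, 0.5, 1 or 5 FPKM added, centring, upper quartile scaling, GC trend removed), 20 of the 49 log2 ratios of the 7 tested members moved by more than 0.1. A constant added to both levels cannot turn a sign, and both scalings shift all genes alike by less than any member's ratio, so the signs are informative only for the GC trend, under which all 7 were kept. The members' median of 0.97 became 0.28 with 5 FPKM added and 1.10 with the trend on transcript GC content removed, and stayed within 0.1 under the others, including the one without TNF, added after seeing the data. The GC trend used 90.7% of the rows with a mean of at least 1 FPKM.

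At an unadjusted p-value under 0.05, where 3.9% of all tested rows were higher and 3.04% lower, genes passed on 5 lists with none called: 1 of 4 receptors (ITGB1, higher), 2 of 10 adhesion molecules (ICAM5 higher, L1CAM lower), 2 of 5 TNF superfamily ligands (CD70 and TNFSF9, higher), 2 of 20 genes of AU-rich decay (CNOT7 and ZFP36L2, higher) and 4 of 10 NF-kappaB genes (BCL3, NFKB2, NFKBIA and RELB, higher). On the TNF signalling list, 1 gene (BIRC3) remained at a q-value of 0.01, 1 with rows of at least 1 FPKM and 0 with rows of at least 5 FPKM, where neither gene reaches that level. The kappaB count of 3 members was 5 with the looser pattern. For no motif did the number of members with a match change when only the 250 bases before the start were read. No paired analysis was possible because the table holds 1 value per group, and leaving out each replicate was not run for the same reason.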
